A study of Mus musculus with 12 samples.

Results

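Kinesins, cytoplasmic dynein and dynactin are the machines that carry cargo along microtubules. Their transcripts are described here in material captured as astrocytes from a mouse model of amyotrophic lateral sclerosis (ALS). The genes were chosen by symbol: those starting with Kif or Klc and a number, or with Dync1, Dync2, Dynll, Dynlt, Dynlrb or Dctn, that had a probe set annotated to that gene alone. This gave 59 genes of the 18193 with such a probe set. Each gene was read from its brightest probe set, the one with the highest mean signal over all arrays. Of the 59 genes, 46 were bright enough to be tested (a signal exceeding the array's median on 3 or more arrays), beside 12429 tested genes in all. Kif11, Kif18b, Kif4 and Klc3 would not have passed without the SOD1 G93A arrays at 120 days.

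The arrays measured RNA of material captured as astrocytes, cut by laser out of sections of the lumbar cord of male mice. The study states that the captured cells were mixed, with a large astrocyte part, and that neuronal and microglial markers remained. Transgenic mice carried human SOD1 with the G93A mutation (SOD1 G93A), backcrossed onto C57Bl/6 J Ola/Hsd, and non-transgenic (NTg) littermates were the controls. The 4 groups were SOD1 G93A at 90 days (symptomatic), NTg at 90 days, SOD1 G93A at 120 days (late-stage) and NTg at 120 days. Each group held 3 mice with 1 array per mouse, 12 arrays in all, and no mouse was sampled at both ages. The transgene is driven by the human SOD1 promoter and so is not limited to astrocytes.

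Most kinesins walk towards the plus ends of microtubules, which in axons point away from the cell body, whereas dynein walks towards the minus ends. Kinesin-1 is built of heavy chains (Kif5a, Kif5b, Kif5c) that hold the motor and light chains (Klc1, Klc3, Klc4) that bind cargo. Dynein is built around a heavy chain motor, with intermediate, light intermediate and light chains for cargo, and needs dynactin for long runs. Kif5a mutations cause forms of human ALS, and mutations in DCTN1 cause a human motor neuron disease. Astrocytes use the same motors to bring mRNA, mitochondria and vesicles to their fine processes.

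At 120 days, 6 of the 46 tested motor genes differed between SOD1 G93A and NTg material past the threshold (changed), 5 of them lower and 1 higher. Changed stands for an adjusted p under 0.05 in limma, adjusted over the 26132 probe sets tested. The lower ones were the kinesin-1 heavy chains Kif5c and Kif5a, the light chain Klc1, the dynein intermediate chain Dync1i1 and the unusual kinesin Kif26a, and the higher one was the light chain Klc3. These 6 are 13.0% of the tested motor genes, against 8.6% of all genes tested. The 5 lower are 10.9% against 4.47%, and the 1 higher is 2.17% against 4.14%. That higher gene, Klc3, was admitted to the test by the SOD1 G93A arrays at 120 days, in which it was high. With no filter on low signals, 4 of 59 motor genes changed, all of them lower, against 3.57% of all genes. An unadjusted p under 0.05 was reached by 16 of 46 at 120 days, against 27.7% of all genes. At 90 days none had changed in either direction, where 0.225% of all genes tested had, and 3 of 46 had an unadjusted p under 0.05 in limma, against 6.22% of all genes.

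Changes are given on the log2 scale as SOD1 G93A minus NTg, called the log2 change, each with its standard error (SE) or 95% interval where it is described in full, and -1 stands for a level 2-fold lower. Over the 46 genes the median was -0.13 at 90 days and -0.23 at 120 days, beside 0.02 and -0.08 over all genes tested. At 120 days the 3 SOD1 G93A arrays all lay below the 3 NTg arrays for 14 motor genes and all above them for 3, where 20.4% and 15.3% of all genes did so.

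**Figure D1:**
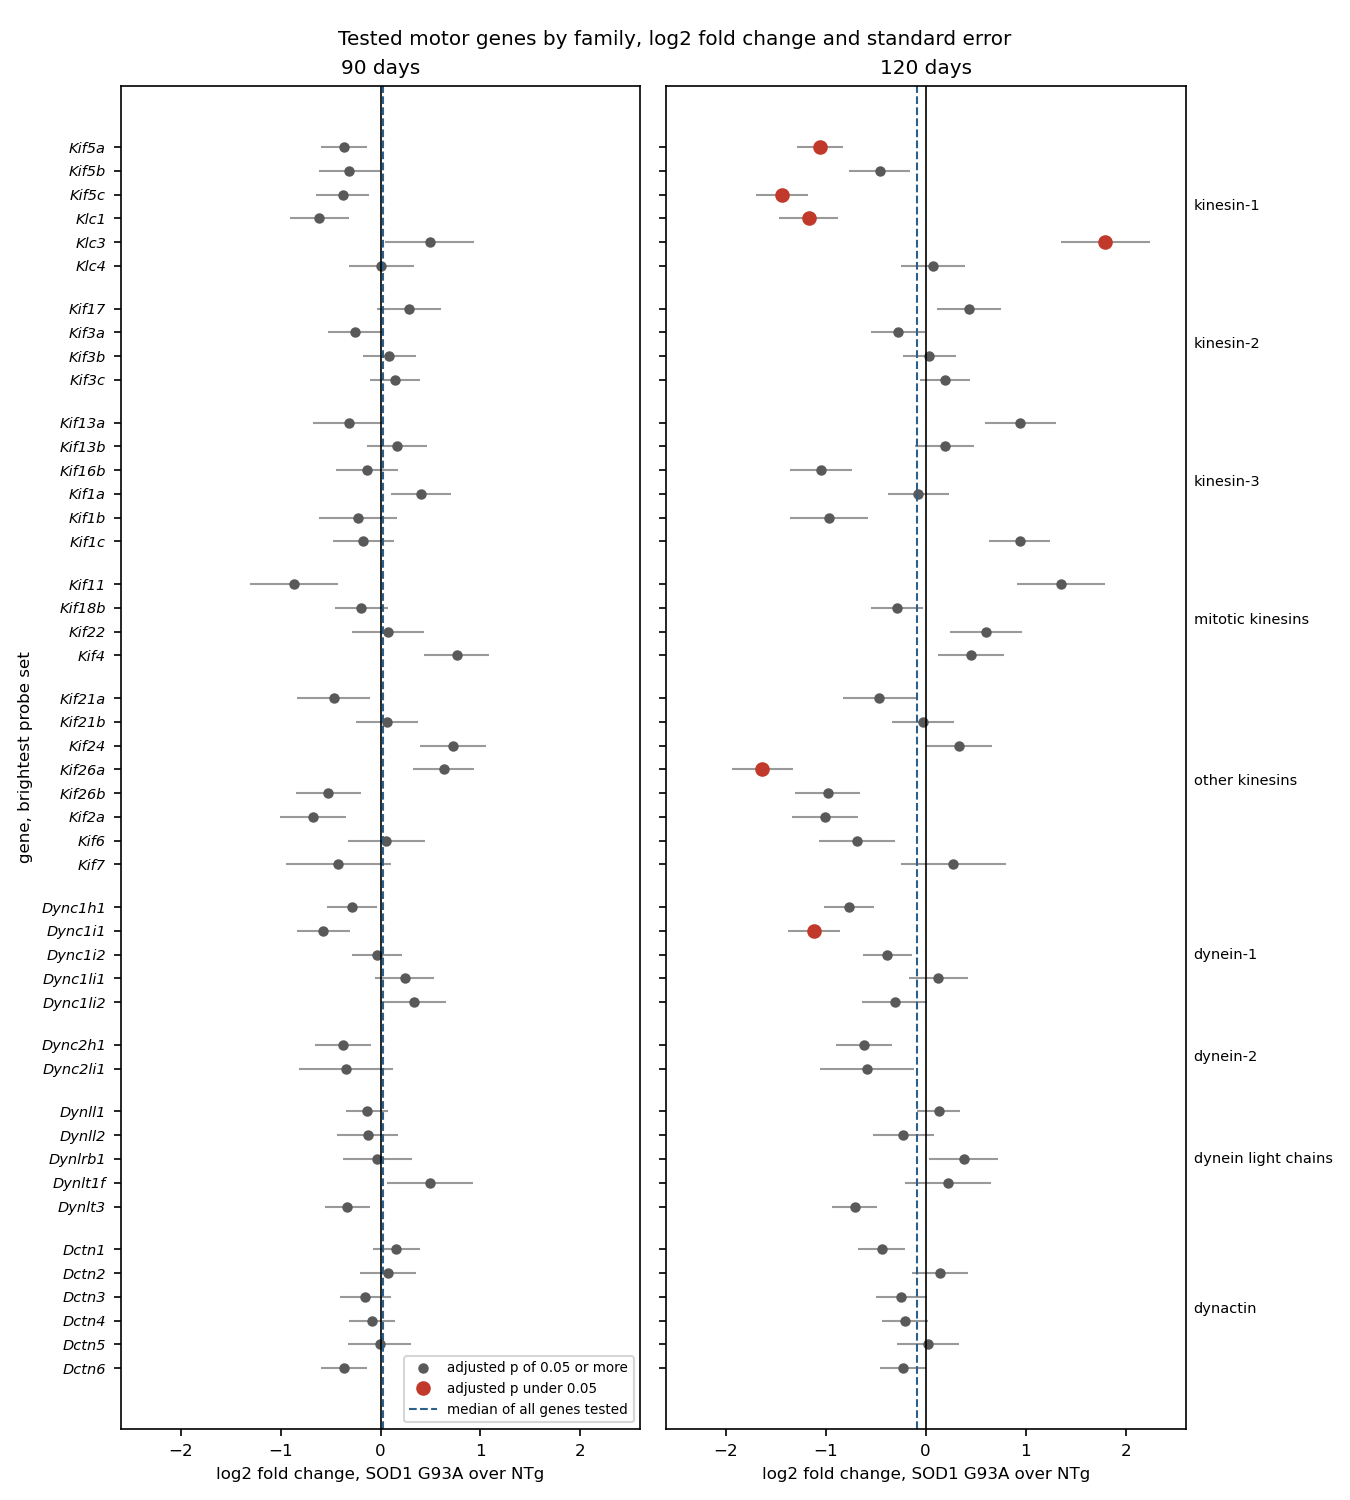
Log2 change (SOD1 G93A minus NTg, points) and its SE (lines) for the 46 tested motor genes by family, at 90 days on the left and 120 days on the right, from 3 arrays per group. At 90 days no gene passed the threshold, and at 120 days Kif5a, Kif5c, Klc1, Kif26a and Dync1i1 lay below 0 and Klc3 above it (red).

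Several facts about the arrays bear on these values. Median deposited signals were 27.8 to 29.8 in SOD1 G93A and 24.9 to 30.4 in NTg mice at 90 days, and 38.8 to 55.2 in SOD1 G93A and 27.9 to 37.1 in NTg mice at 120 days, so the late-stage SOD1 G93A arrays were brighter at the median. The late-stage SOD1 G93A array with the highest median, replicate 3, also correlated least with its group (mean r = 0.860 over all probe sets, against 0.893 and 0.894 for the other two). Astrocyte markers were read on all arrays, and their mean normalized log2 signals were 9.77 to 10.53 in SOD1 G93A and 9.10 to 9.50 in NTg mice at 120 days, with Gfap, Aldh1l1 and Sox9 of 9 tested markers higher, where 4.14% of all genes were. Markers of other cells were read as well, and the study describes the captured material as mixed cells rich in astrocytes. Neuron markers stood at 9.65 to 9.92 in SOD1 G93A and 10.33 to 10.74 in NTg mice at 120 days. Microglia markers stood at 6.61 to 6.92 in SOD1 G93A and 5.32 to 5.43 in NTg mice. Oligodendrocyte markers were bright too, at 9.80 to 10.32 in SOD1 G93A and 9.57 to 10.07 in NTg mice at 120 days. In bulk material of this kind, fewer cells of a type and less RNA per cell cannot be told apart.

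Kinesin-1 held 4 of the 6 changed genes, from 6 tested (66.7%), where 8.6% of all genes changed. The 4 include Klc3, admitted to the test by the group in which it was high, and Klc1, whose probe sets differed in direction. Kif5c encodes a heavy chain known from neurons and was the gene with the smallest p of the 46 at 120 days. Its probe set 1455266_at had normalized log2 signals of 10.83, 10.95 and 10.49 in SOD1 G93A mice at 120 days, against 12.13, 12.26 and 12.20 in NTg mice. The groups lay more than 1 log2 unit apart with no overlap. The log2 change was -1.44 (SE 0.26, 95% interval -2.0 to -0.87, adjusted p = 0.00743), a level 2.71-fold lower. In the signals as deposited this was 2021, 1943 and 1282 in SOD1 G93A mice, against 4047, 4555 and 4306 in NTg mice. At 90 days the normalized values were 11.45, 11.94 and 11.78 in SOD1 G93A and 12.10, 12.51 and 11.70 in NTg mice. These groups overlapped and the difference of -0.38 did not pass the test (adjusted p = 1.00).

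Kif5a, the neuronal heavy chain in which human ALS mutations lie, was lower on every SOD1 G93A array at both ages. Its probe set 1434670_at stood at 10.60, 11.14 and 10.58 in SOD1 G93A mice at 120 days, against 11.74, 11.84 and 11.91 in NTg mice, a log2 change of -1.05 (SE 0.23, adjusted p = 0.0174). At 90 days the values were 11.67, 11.49 and 11.56 in SOD1 G93A and 12.04, 11.85 and 11.95 in NTg mice. The arrays again did not overlap, but the difference of -0.37 did not pass the test (95% interval -0.86 to 0.13, adjusted p = 1.00). Such separation was seen for 6 lower motor genes at 90 days, where 5.45% of all genes were separated in that direction.

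Kif5b, the heavy chain that most cell types use, did not pass the threshold at either age. Its values at 120 days were 9.30, 10.15 and 9.45 in SOD1 G93A mice, against 10.57, 9.77 and 9.94 in NTg mice. The groups overlapped, with a log2 change of -0.46 (95% interval -1.11 to 0.19, adjusted p = 0.357). The difference between Kif5b and the other heavy chains was not tested. Of the 6 tested probe sets of Kif5b, 5 lay below 0 at 120 days, between -0.57 and -0.27, and 1 at 0.18, and none passed the test.

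The light chains went in different directions. Klc1, a light chain abundant in neurons, had 11.39, 11.70 and 10.96 in SOD1 G93A mice at 120 days, against 12.26, 12.75 and 12.56 in NTg mice. All SOD1 G93A arrays lay below all NTg arrays, with a log2 change of -1.17 (SE 0.29, adjusted p = 0.0311). At 90 days the groups were barely separated, at 11.12, 11.27 and 11.20 in SOD1 G93A and 11.86, 12.29 and 11.27 in NTg mice, and the difference of -0.61 did not pass the test (adjusted p = 0.915).

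Klc3, a light chain best known from the sperm tail of rodents, was dim and passed the test upwards. It was admitted to the test by the group in which it was high: its signal exceeded the array's median on 3 of 3 SOD1 G93A arrays at 120 days and on 1 other array, an NTg array at 90 days. With no filter on low signals the call was lost (adjusted p = 0.0508). It had 6.45, 6.56 and 6.58 in SOD1 G93A mice at 120 days, against 4.81, 5.32 and 4.07 in NTg mice. The SOD1 G93A arrays were close together and all above the NTg arrays, which were spread over more than 1 log2 unit. The log2 change was 1.80 (SE 0.44, adjusted p = 0.0290), and in the signals as deposited the values were 79.0, 91.6 and 101.1 in SOD1 G93A mice, against 20.0, 22.7 and 8.3 in NTg mice. At 90 days Klc3 stood at 4.78, 4.80 and 5.14 in SOD1 G93A and 4.51, 3.30 and 5.43 in NTg mice, which overlapped. Klc4 had a log2 change of 0.07 at 120 days (95% interval -0.62 to 0.77, adjusted p = 0.908).

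The promoters of the kinesin-1 genes whose calls went apart are shown because 2 that fell together shared a letter sequence that few promoters hold. The windows run 300 bases, from 250 before to 50 after the start site, in mouse build GRCm38.p6 of RefSeq, and 48 of the 59 genes had at least 1, making 55 windows. Capitals mark matches, on either strand, to the GC box GGGCGG, the CCAAT box CCAAT, the TATA box TATAAA, the E-box CACGTG, the cAMP response element TGACGTCA or the REST half-site TTCAGCACC. The Kif5c window lies at chr2:49619036-49619335 on the plus strand, the Klc1 window at chr12:111758618-111758917 on the plus strand and the Klc3 window at chr7:19404055-19404354 on the minus strand. No window of Kif5a was matched.
Kif5c: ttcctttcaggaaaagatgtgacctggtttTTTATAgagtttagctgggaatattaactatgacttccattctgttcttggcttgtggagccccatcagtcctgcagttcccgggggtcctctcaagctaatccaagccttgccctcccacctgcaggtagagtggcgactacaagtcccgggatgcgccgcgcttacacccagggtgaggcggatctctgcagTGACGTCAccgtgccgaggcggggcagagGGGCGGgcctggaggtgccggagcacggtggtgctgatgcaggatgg
Klc1: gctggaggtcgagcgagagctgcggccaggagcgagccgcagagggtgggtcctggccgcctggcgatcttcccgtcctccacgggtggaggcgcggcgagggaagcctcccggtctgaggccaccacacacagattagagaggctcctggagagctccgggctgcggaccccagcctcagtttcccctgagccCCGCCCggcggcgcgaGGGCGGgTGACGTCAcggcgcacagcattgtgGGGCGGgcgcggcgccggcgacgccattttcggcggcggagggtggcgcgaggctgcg
Klc3: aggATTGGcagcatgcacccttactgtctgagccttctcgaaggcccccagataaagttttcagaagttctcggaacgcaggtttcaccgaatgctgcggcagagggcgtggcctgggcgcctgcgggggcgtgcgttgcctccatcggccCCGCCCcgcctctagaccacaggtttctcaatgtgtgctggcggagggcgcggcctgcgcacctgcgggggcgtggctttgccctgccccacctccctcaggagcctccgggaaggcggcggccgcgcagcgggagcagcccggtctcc

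Kif5c and Klc1, both lower at 120 days, each held the full cAMP response element TGACGTCA once, starting at position -26 in Kif5c and -33 in Klc1 relative to the start site. Klc3 held none in its window, and neither did Dync1i1 or Kif26a. The element was in 5 of 55 windows of motor genes (9.09%), against 1.79% of 32851 promoter windows. Among the 5 were the windows of Kif5c and Klc1, for which the element was singled out, so the share is not separate evidence. The other 3 were those of Kif18a, which was too dim to be tested, and of Dctn3 and Kif17, which had log2 changes of -0.24 and 0.43 at 120 days and did not pass the test. A GC box was in 37 of 55 windows of motor genes (67.3%), against 35.7% of all, with 3 matches in Klc1, 1 in Kif5c, 1 in Klc3 and 6 in Kif26a. The Dync1i1 window matched none of these letters. The GC content was 73.7% in Klc1, 58.0% in Kif5c, 68.0% in Klc3, 69.7% in Kif26a and 46.7% in Dync1i1. The median over all promoter windows was 52.7%. Whether any of these letters bear on the changes was not tested.

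These kinesin-1 calls rested on few arrays. Kif5c kept its call under all 18 alternatives tried, with log2 changes between -1.71 and -1.19. Kif5a kept it in 13 of 18, Klc1 in 11 of 18 and Klc3 in 10 of 17, each with the same sign throughout. Kif5a and Klc1 lost their calls without the SOD1 G93A array replicate 3 (adjusted p = 0.0541 and 0.105), without NTg replicate 2 (0.0703 and 0.129) or without NTg replicate 3 (0.0741 and 0.0971). Klc3 lost its call without any array other than SOD1 G93A replicate 1, with adjusted p from 0.0518 to 0.125. The count of 6 motor genes became 2, 1 and 2 without SOD1 G93A replicate 3, NTg replicate 2 and NTg replicate 3, while the share over all genes became 4.82%, 2.15% and 2.61%.

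**Figure D2:**
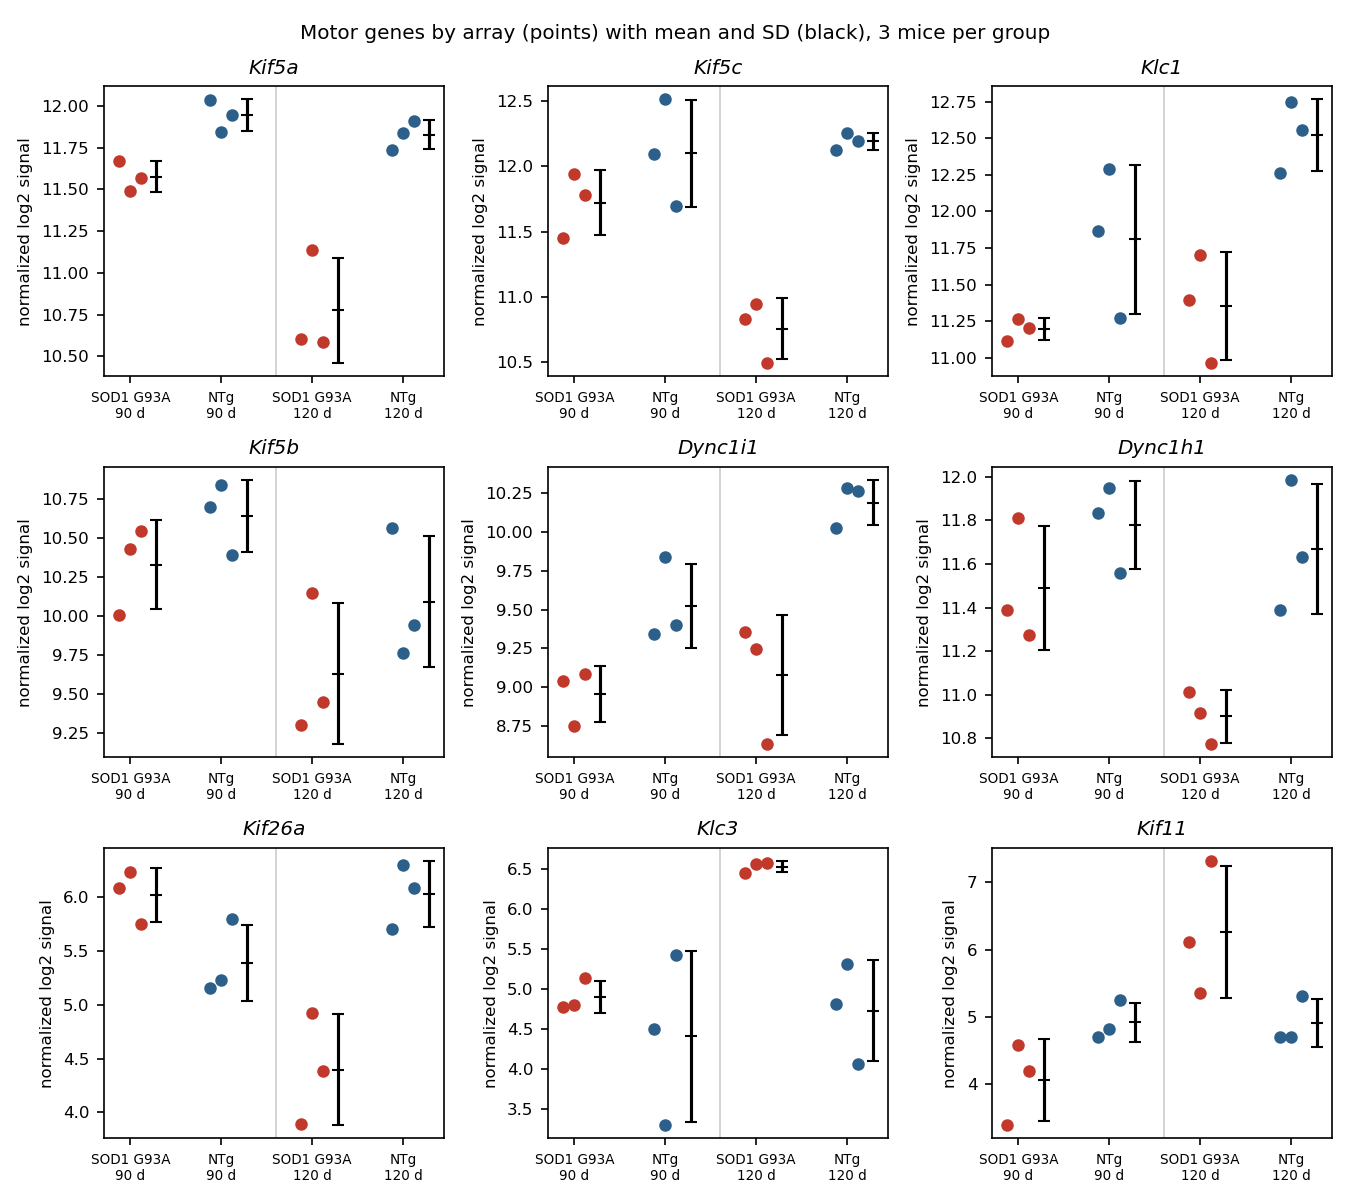
Normalized log2 signal of 9 motor genes on each array (points, 3 mice per group), with the group mean and SD in black; SOD1 G93A in red and NTg in blue at 90 and 120 days, with a separate vertical scale per gene. At 120 days Kif5a, Kif5c, Klc1, Dync1i1, Dync1h1 and Kif26a lay lower on every SOD1 G93A array and Klc3 and Kif11 higher, while Kif5b overlapped.

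Neuron markers are given beside Kif5c, Kif5a and Klc1, since they fell too. Of 10 tested, 5 fell and 1 rose at 120 days (median -0.99), where 4.47% of all genes fell and 4.14% rose, and 0 changed at 90 days (median -0.32), where 0.225% of all genes did. The neurofilament subunits Nefl, Nefm and Nefh had -1.18, -1.68 and -1.30 at 120 days, the nuclear marker Rbfox3 -1.14 and the synaptic marker Snap25 -1.43. Syt1, Syp and Eno2, which many neurons also express, had -0.47, -0.55 and -0.01 and did not pass the test, and the growth-associated gene Gap43 rose by 1.43. The values of Kif5c, Kif5a and Klc1, from -1.44 to -1.05, stood beside values of -1.68 to -1.14 for the markers that fell. Both ranges hold only genes that passed the same threshold, so small changes were left out of each. The part of neuronal RNA in the kinesin-1 values was not tested. The motor neuron markers Chat and Slc18a3 had -0.67 and -1.14. None of the 5 tested motor neuron markers passed the test, where 8.6% of all genes did.

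Kinesin-2 motors carry cargo in axons and build cilia, and none of the 4 genes changed at either age. Of all genes, 0.225% changed at 90 days and 8.6% at 120 days. Kif3a had 8.22, 8.02 and 7.81 in SOD1 G93A mice at 120 days, against 8.27, 7.93 and 8.68 in NTg mice. The groups overlapped, with a log2 change of -0.27 (95% interval -0.85 to 0.30, adjusted p = 0.549). Kif3b had 0.04, Kif3c 0.19 and Kif17, known from dendrites, 0.43. The family median was 0.11 at both ages, and at 120 days it turned to -0.27 when each array was centred on its median in place of quantile normalization. That centring put the median of all genes at 120 days at -0.40, where it otherwise was -0.08.

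Kinesin-3 motors carry synaptic vesicle precursors, mitochondria and endosomes. None of the 6 tested genes passed the threshold at 120 days, where 8.6% of all genes did. An unadjusted p under 0.05 in limma was reached by 4 of the 6, against 27.7% of all genes. Kif16b, which moves early endosomes, had 6.03, 6.18 and 5.12 in SOD1 G93A mice, against 6.75, 6.98 and 6.74 in NTg mice. The groups did not overlap, with a log2 change of -1.05 (adjusted p = 0.0570). Kif1c, which carries vesicles and mRNA, had 9.05, 9.65 and 10.04 in SOD1 G93A mice, against 9.02, 8.43 and 8.48 in NTg mice, and 0.94 (adjusted p = 0.0763). Kif13a, another endosomal motor, had 0.95 (adjusted p = 0.114) with overlapping groups. Values in this family thus stood on both sides of 0, with a median of 0.06 that turned to -0.22 under median centring.

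Kif1a, the vesicle motor of axons, had a log2 change of -0.07 (95% interval -0.72 to 0.58, adjusted p = 0.903) at 120 days and 0.41 at 90 days. Kif1b, which carries mitochondria and vesicles, had 11.31, 11.12 and 10.99 in SOD1 G93A mice at 120 days, against 12.15, 12.06 and 12.11 in NTg mice. The 120-day groups were separated by more than 0.5 log2 units, but the difference of -0.97 did not pass the test (SE 0.39, adjusted p = 0.140). The fit estimates 1 spread per probe set over both ages, and the 90-day values of Kif1b were 10.87, 11.94 and 12.21 in SOD1 G93A and 12.35, 12.35 and 10.99 in NTg mice. Kif28 was too dim to be tested.

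Mitotic kinesins move chromosomes and spindle fibres and are made in dividing cells. Of the 11, 4 were bright enough to be tested, Kif11, Kif4 and Kif18b each on the fewest arrays allowed. None of these 4 passed the threshold at 120 days, where 8.6% of all genes did. Kif11, which pushes spindle poles apart, had 6.11, 5.36 and 7.31 in SOD1 G93A mice at 120 days, against 4.69, 4.70 and 5.31 in NTg mice. All SOD1 G93A arrays lay above all NTg arrays by a small margin, with a log2 change of 1.36 (SE 0.44, adjusted p = 0.0765). At 90 days the order was the reverse, at 3.39, 4.58 and 4.20 in SOD1 G93A and 4.69, 4.82 and 5.25 in NTg mice, a log2 change of -0.86 (adjusted p = 0.934). Another Kif11 probe set, too dim to be tested, was separated in the opposite direction at each age.

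Among the other mitotic kinesins, Kif22 had log2 changes of 0.07 and 0.60 at 90 and 120 days, Kif4 0.76 and 0.45, and Kif18b -0.19 and -0.28. The brightest probe sets of Kif14, Kif15, Kif18a, Kif20a, Kif20b, Kif23 and Kif2c were too dim, between 3.44 and 5.03 in mean log2 signal. Beside them, 7 of 17 listed genes of dividing cells were tested, of which the proliferation marker Mki67 rose by 2.70 (adjusted p = 0.0102) and none fell, where 4.14% of all genes rose.

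Of the 8 other kinesins that were tested, 1 fell at 120 days, Kif26a (12.5%), where 4.47% of all genes fell. Kif26a is a kinesin that binds microtubules without moving along them and acts in growth factor signalling in enteric neurons of the mouse. It had 3.89, 4.92 and 4.38 in SOD1 G93A mice, against 5.70, 6.31 and 6.09 in NTg mice, with no overlap. The log2 change was -1.63 (SE 0.31, adjusted p = 0.00849), the furthest below 0 of the 46. At 90 days its values of 6.09, 6.24 and 5.75 in SOD1 G93A mice were for the most part above those of 5.15, 5.23 and 5.80 in NTg mice, a difference of 0.63 that did not pass the test (adjusted p = 0.922).

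Kif26a was dim in this material, with deposited signals of 7.8, 26.8 and 21.8 in SOD1 G93A and 43.6, 61.4 and 56.6 in NTg mice at 120 days. It kept its call in 16 of 17 alternatives and lost it without NTg replicate 2 (adjusted p = 0.0585). The related Kif26b had -0.98 (adjusted p = 0.0807) and Kif2a, which takes microtubules apart at their ends, -1.01 (adjusted p = 0.0775), both with separated groups. Kif21a, an axonal kinesin, had -0.46 (adjusted p = 0.451), Kif6 -0.69, Kif7 of the hedgehog pathway 0.27, Kif24 0.33 and Kif21b -0.03. Kif12, Kif27, Kif2b and Kif9 were too dim to be tested.

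At 90 days the motor genes with the smallest p were Kif4, Dync1i1 and Kif24. Their log2 changes were 0.76, -0.57 and 0.72, each with separated groups, and their adjusted p-values were 0.847, 0.886 and 0.886. Higher separated groups at 90 days were seen for 2 tested motor genes, where 6.95% of all genes had them. The median half-width of the 95% interval of a motor gene was 0.66 log2 units at each age, and the narrowest was 0.46. Smaller changes at 90 days could not be resolved with 3 mice per group. These intervals are not adjusted for the number of probe sets tested, so larger changes could miss the threshold too, as Kif4 did at 0.76.

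Dynein-1, the cytoplasmic dynein of retrograde transport, changed in 1 of its 5 tested genes at 120 days, where 8.6% of all genes changed. Dync1i1, an intermediate chain known from neurons that links the motor to dynactin, had 9.35, 9.25 and 8.63 in SOD1 G93A mice, against 10.03, 10.29 and 10.26 in NTg mice. The groups were separated, with a log2 change of -1.11 (SE 0.26, adjusted p = 0.0235). At 90 days it had 9.04, 8.75 and 9.08 in SOD1 G93A and 9.34, 9.84 and 9.40 in NTg mice, which were separated as well. Its call at 120 days was kept in 13 of 18 alternatives and lost without SOD1 G93A replicate 3 (adjusted p = 0.0688), NTg replicate 2 (0.102) or NTg replicate 3 (0.0862).

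The second intermediate chain, Dync1i2, which most cells make, had -0.38 (95% interval -0.91 to 0.15, adjusted p = 0.349). The heavy chain Dync1h1 had 11.01, 10.92 and 10.77 in SOD1 G93A mice at 120 days, against 11.39, 11.98 and 11.63 in NTg mice. The groups were separated, and the log2 change of -0.77 was short of the threshold (95% interval -1.31 to -0.23, adjusted p = 0.0770). The light intermediate chains Dync1li1 and Dync1li2, which bind cargo adaptors, had 0.13 and -0.31. Dynein-2, the motor of cilia, was measured by Dync2h1 and Dync2li1, with -0.61 and -0.59, and neither passed the test.

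Dynein light chains, small subunits shared by dynein and other complexes, held no changed gene among the 5 tested. Of all genes, 8.6% changed at 120 days and 0.225% at 90 days. Dynll1 had 11.24, 11.21 and 11.43 in SOD1 G93A mice at 120 days, against 11.19, 11.07 and 11.23 in NTg mice, a log2 change of 0.13 (95% interval -0.33 to 0.59, adjusted p = 0.733). Dynll2 had -0.22, Dynlrb1 0.38 and Dynlt1f 0.23. Dynlt3, a light chain related to Dynlt1, had 11.20, 11.27 and 10.90 in SOD1 G93A mice, against 11.83, 11.93 and 11.74 in NTg mice, which were separated, and -0.71 (adjusted p = 0.0701). The family median was 0.13 at 120 days and turned to -0.15 under median centring. Dynlrb2 was too dim to be tested.

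Probe sets annotated to several Dynlt1 genes lie outside the 59 genes. One that names Dynlt1a, Dynlt1b, Dynlt1c and Dynlt1f together, 1453473_a_at, had 6.48, 5.88 and 6.86 in SOD1 G93A mice at 120 days, against 4.94, 5.17 and 5.60 in NTg mice. It rose by 1.17 (adjusted p = 0.0352) with separated groups, and which of the 4 near-identical genes gave the signal is uncertain. Another of the same 4 genes, 1428116_a_at, had 0.92 (adjusted p = 0.0677).

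Dynactin joins dynein to its cargo and to the microtubule, and all 6 genes were tested with none changed at either age. Of all genes, 8.6% changed at 120 days and 0.225% at 90 days. Dctn1, the largest subunit, had 10.49, 10.29 and 10.65 in SOD1 G93A mice at 120 days, against 10.69, 11.22 and 10.84 in NTg mice. The groups were separated by a narrow margin, and the log2 change was -0.44 (95% interval -0.95 to 0.07, adjusted p = 0.260). Dctn2, whose excess takes dynactin apart, had 0.14, Dctn3 -0.24, Dctn4 -0.20, Dctn5 0.02 and Dctn6 -0.23. In the main setting the intervals of Dctn2, Dctn4 and Dctn6 were -0.46 to 0.75, -0.70 to 0.29 and -0.72 to 0.27, so falls of 2-fold lay outside them there. Median centring moved the dynactin median at 120 days from -0.22 to -0.73, so these limits apply to the main setting only. A dimmer Dctn5 probe set, 1415748_a_at, had -0.84 (limma, adjusted p = 0.0885) with separated groups.

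The change between ages was asked of each gene as the 120-day difference minus the 90-day difference. No motor gene and 0 of 12429 genes (0%) passed the threshold in limma, where 5 of 46 motor genes and 9.08% of all genes had an unadjusted p under 0.05. Kif26a had -2.27 (adjusted p = 0.194), Kif5c -1.06 (0.458), Kif5a -0.68 (0.550), Klc1 -0.56 (0.689), Dync1i1 -0.54 (0.656) and Klc3 1.31 (0.553). The genes that changed at 120 days and not at 90 days were therefore not shown to differ between the ages.

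Probe sets of 1 gene did not always have changes of the same sign. The 59 genes had 141 probe sets, of which 94 were tested, and 9 changed at 120 days, 6 lower and 3 higher, where 7.45% of all probe sets changed. Of the 25 genes with more than 1 tested probe set, 15 had log2 changes of both signs at 120 days. That count takes the sign alone, so it holds values close to 0, and the share over all genes was not taken. For Klc1 the brightest probe set had -1.17 and the dimmer 1428881_at 0.70 (adjusted p = 0.267), and the mean of both had -0.23 (adjusted p = 0.568). For Kif5c the second probe set, 1422945_a_at, had -0.95 (adjusted p = 0.122), the same direction as the first.

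For Kif1b, probe set 1423994_at fell with -1.26 (adjusted p = 0.0401), the brightest had -0.97, and 1423995_at had 1.02 (adjusted p = 0.0879). For Dynll1, probe set 1448682_at rose by 0.83 (adjusted p = 0.0416), while the 2 brighter ones had 0.13 and 0.25 and a dim one -0.44. For Kif13b, the dim 1453276_at rose by 1.08 (adjusted p = 0.0438), 1433159_at had -0.90 (adjusted p = 0.0800) and the brightest 0.19. The 4 probe sets of Kif3a had -0.27, -0.72, 0.69 and -0.83, and none passed the test. Kif5a, Klc3, Kif26a and Dync1i1 each had 1 tested probe set, so no second reading of them was at hand. Which transcript forms these probe sets read was not tested.

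**Figure D3:**
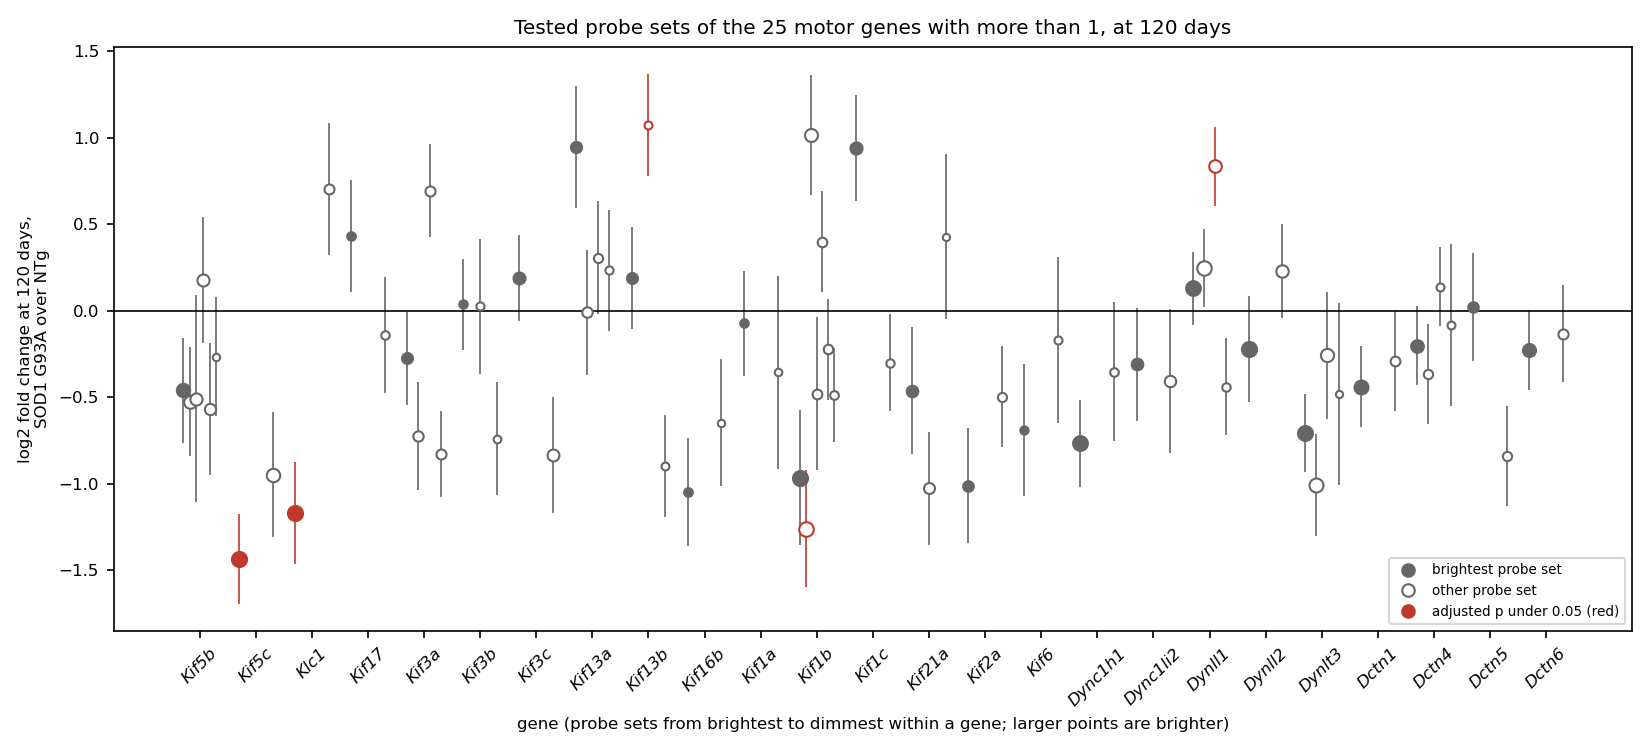
Log2 change at 120 days (SOD1 G93A minus NTg, points) and its SE (lines) for every tested probe set of the 25 motor genes that have more than 1, from 3 arrays per group. Filled points are the brightest probe set of a gene and red ones passed the threshold; for Klc1, Kif1b, Kif3a and Kif13b the probe sets lie on both sides of 0.

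The partners of the motors were read from lists. Of 32 tested cargo adaptors and motor regulators none changed at 120 days, where 8.6% of all genes did. An unadjusted p under 0.05 in limma was reached by 10 of 32, against 27.7% of all genes, and the median was -0.37. Kifap3, the cargo subunit of kinesin-2, had -0.95 (adjusted p = 0.0629), Ndel1, a dynein regulator, -0.85 (adjusted p = 0.0563), and Trak1, the mitochondrial adaptor, -0.01. Other settings called up to 6 of them, the most under median centring, all lower there, where 16% of all genes were called.

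Of 14 tested tubulins, the tracks of the motors, 2 fell and 1 rose at 120 days, where 4.47% of all genes fell and 4.14% rose. Tuba4a and Tubb4b had -0.79 (adjusted p = 0.0419) and -1.22 (adjusted p = 0.0393), and Tubb2b, known from developing neurons and glia, rose by 1.42 (adjusted p = 0.0121). Of 15 microtubule-associated proteins, Stmn3 fell with -1.04 (adjusted p = 0.0308) and Stmn4 rose by 1.11 (adjusted p = 0.0425), both stathmins that bind free tubulin, against 8.6% of all genes in either direction. The list medians were -0.27 and -0.23.

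The actin-based motors moved differently from gene to gene. Of 15 tested myosins, 3 rose and 2 fell at 120 days, where 4.14% and 4.47% of all genes did. The median was 0.33, and 0.08 under median centring. Myo1e and Myo1f had 1.84 (adjusted p = 0.0121) and 2.03 (adjusted p = 0.0102), and Myo10, which builds filopodia, 1.33 (adjusted p = 0.0193). Myo5a, a vesicle motor of neurons, had -1.25 (adjusted p = 0.0222) and the non-muscle heavy chain Myh10 -1.56 (adjusted p = 0.00254). Myo1f is known from leukocytes and microglia, and 6 of 8 tested microglia markers rose at 120 days (4.14% of all genes) and 2 of 8 at 90 days (0.225% of all genes changed). The part of microglial RNA in these values was not tested.

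**Figure D4:**
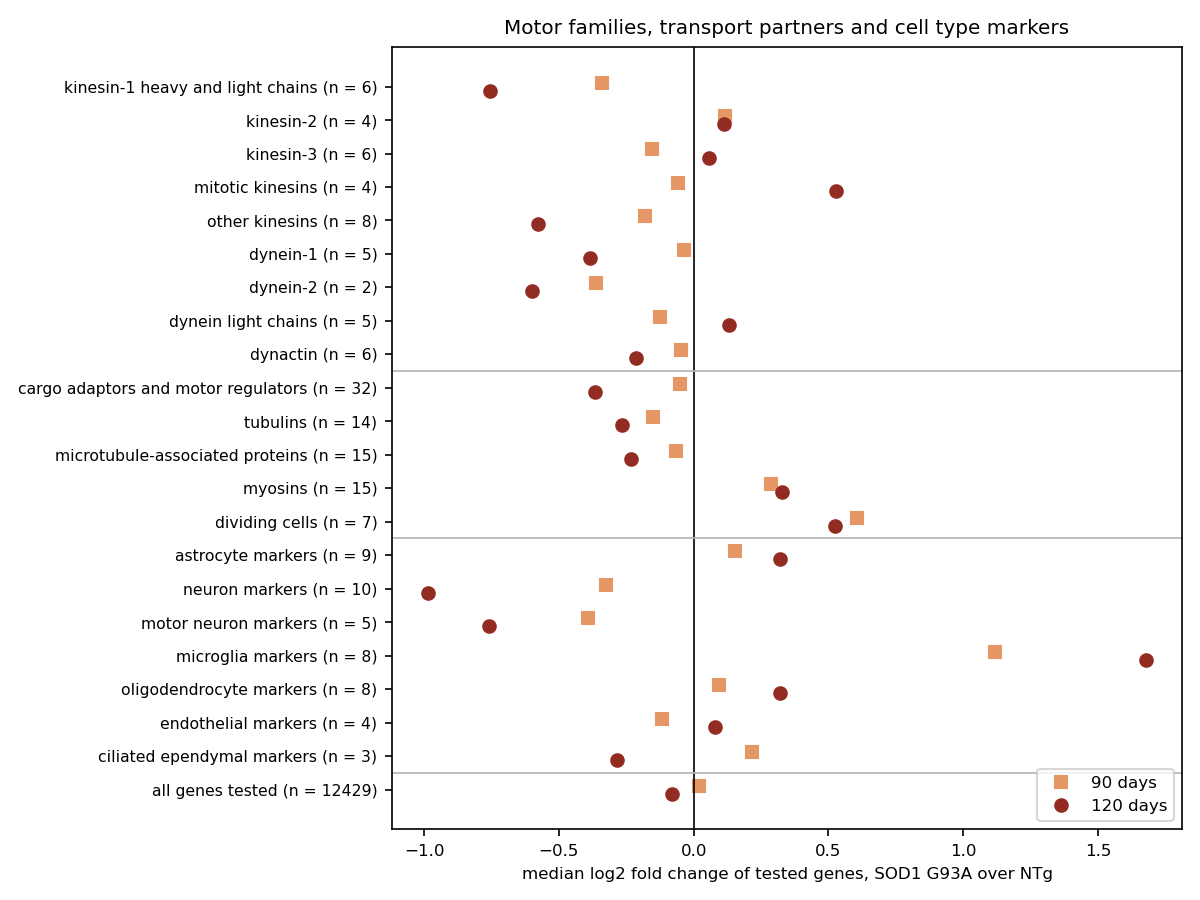
Median log2 change (SOD1 G93A minus NTg) of the tested genes of each motor family, partner list and cell type marker list, at 90 days (squares) and 120 days (circles), with the number of genes in parentheses and all genes tested at the bottom. Kinesin-1 lay at -0.34 and -0.76, the neuron markers at -0.32 and -0.99 and the microglia markers at 1.12 and 1.68.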

How the data were processed

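RNA was amplified in 2 rounds and hybridised to Affymetrix Mouse Genome 430 2.0 arrays. The authors deposited intensities on a linear scale, computed with MAS5 (no version named) with the trimmed mean of every array set to 100. The labels describe toluidine blue staining, the methods ALDH1L1 staining and PLIER summaries, which these values are not.

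Signals were taken as log2 after adding 7, the 20th percentile of all values, and quantile-normalized within each age, so levels are not compared between ages. A probe set was tested where it exceeded its array's median on 3 or more arrays, which 26132 of 45101 did, with 64 controls excluded. Intensities near the added 7 carry little precision, and 3 arrays per group limit it throughout. Gene symbols came from the platform annotation, which gave 1 symbol to 34945 probe sets, several to 932 and none to 9160.

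Group means were estimated with limma 3.58.1 under R 4.3.3 (8 residual degrees of freedom). The Benjamini-Hochberg correction ran over every tested probe set, and the threshold was 0.05. On simulated data, 10 of 100 probe sets changed 2-fold at 120 days and 68 of 100 changed 4-fold were called among 26132. None had the wrong sign, and 8 unchanged ones were called as well. No other probe sets were changed there, whereas 1948 were called in the data, so the cutoff on p was stricter in the simulation. Its arrays were also independent of each other, so these shares do not carry over to the data. Nothing in the labels tied arrays of the same number to each other. Correlations of same-numbered deviations were -0.27, 0.28 and -0.28 at 90 days and -0.07, 0.04 and -0.01 at 120 days, so no pairing was used. At 90 days, arrays of different number reached 0.46 (SOD1 G93A 1 with NTg 3) and -0.36 (SOD1 G93A 1 with NTg 2). The fit did not model this shared variation.

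The motor genes, families and lists were chosen with earlier results of these data known. Named in full were canonical subunits and members from the study's lists, every changed gene, the 3 with the smallest p at 90 days and those whose probe sets disagreed with a call. Other names were chosen after their values were seen. Plots were made in python 3.11.15 (matplotlib 3.10.9).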

Additional observations from a re-analysis of the deposited data

Results flagged for a closer look

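Kif11 was tested because it exceeded the array's median on 3 arrays, 2 of them of late-stage SOD1 G93A mice, where it was high. Its brightest probe set was separated in opposite directions at the ages, with every SOD1 G93A array below every NTg array at 90 days and above at 120 days. The difference between the ages was 2.22 on the log2 scale (limma, adjusted p = 0.386), which did not pass the threshold. Without 1 array in turn and under the other settings the 120-day value stayed above 0. It passed the threshold there without SOD1 G93A replicate 2 (1.83, adjusted p = 0.0261) and with the values as deposited (1.63, adjusted p = 0.0341). Without SOD1 G93A replicate 3, which had the highest value, it was 0.85 (adjusted p = 0.223). Of 12429 genes tested, 54 (0.434%) were separated in opposite directions at the ages, 26 of them (0.209%) in the direction of Kif11. Another Kif11 probe set, 1452314_at, was too dim to be tested and was separated the other way at each age. Its means were 3.98 in SOD1 G93A and 3.58 in NTg mice at 90 days, and 3.89 and 4.57 at 120 days. Probe set 1435306_a_at, also too dim, overlapped at both ages.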

How the results depend on the processing

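The direction of each changed gene at 120 days held under every alternative that gave it a value (Klc3 and Kif26a had none under the 75th percentile filter), and the counts of 0 changed motor genes at 90 days and for the difference between ages held under all settings that adjust p (a 2-fold change with unadjusted p gave 0 at 90 days as well). The count of 6 at 120 days, beside 8.6% of all genes, became 14 under median centring (13 lower), beside 16% of all genes. It was 11 with an offset at the 50th percentile (13.4% of all genes) and 10 with a trended and robust prior (12.1%). It was 3 with each age fitted alone (3.26%) and 3 with the replicate block (4.7%). With 1 array left out it ranged from 1 to 7, where 2.15% to 10.3% of all genes were called. The block called Kif5c, Klc3 and Kif26a. The list counts further on belong beside the same shares of all genes. In the other settings these were 10.8% (deposited values), 11.8% (quantile normalization over all arrays), 6.87% (offset of 1) and 3.57% (no filter). They were 17.4% (75th percentile filter), 11.6% (array weights), 10.6% (mean of probe sets) and 13.2% (2-fold rule). No share over all probe sets was taken for the alternatives. Under median centring 81.9% of all calls were lower, against 51.9% in the main setting and 22.8% to 59.1% in the others. The 9 changed motor probe sets became 23, 17, 16, 14, 14, 4, 3 and 3 under median centring, the higher offset, the trended prior, the 75th percentile filter, the 2-fold rule, no filter, single ages and the block, and 1 to 9 without 1 array. Lists, whose alternatives were chosen after seeing the data, gave 0 adaptors in the main setting and 6 under median centring, 5 under the higher offset, the 75th percentile filter and the trended prior, 3 with deposited values and with the mean of probe sets, 2 under the 2-fold rule, 1 with array weights and with quantile normalization over all arrays, and 0 to 2 without 1 array. Dividing-cell genes numbered 2 with deposited values, both normalizations, the higher offset, array weights, the trended prior and the 2-fold rule. They numbered 0 with single ages and 0 to 2 without 1 array, and the 75th percentile filter left none to test. Microtubule-associated proteins numbered 5 with the higher offset, the trended prior and the 2-fold rule, 4 with the 75th percentile filter, 1 with deposited values and an offset of 1, 0 with no filter, single ages and the block, and 0 to 3 without 1 array. Myosins numbered 3 with the 75th percentile filter, 2 with single ages and 2 to 5 without 1 array; tubulins 1 with no filter and the block, 0 with single ages and 0 to 3 without 1 array. Median centring put the 120-day medians of kinesin-1, kinesin-2, kinesin-3, dynein-1, light chains, dynactin and all motor genes at -1.19, -0.27, -0.22, -0.96, -0.15, -0.73 and -0.60, and that of all motor genes at 90 days at -0.17. The 75th percentile filter gave -1.05, -0.041, 0.57 and -0.046 for kinesin-1, kinesin-2, kinesin-3 and light chains at 120 days, -0.056 and -0.47 for kinesin-2 and other kinesins at 90 days, and left no dynein-2 gene. The mean of all probe sets gave -0.30 and -0.25 for kinesin-1 and kinesin-2 at 120 days and -0.22 for light chains at 90 days. Dynein-1 at 120 days was -0.57 with deposited values and -0.55 with array weights, and all motor genes -0.0044 at 120 days with no filter, -0.036 at 90 days with no filter and -0.092 with the higher offset. Leaving out 1 array gave ranges of -0.98 to -0.63 (kinesin-1), -0.65 to -0.32 (dynein-1), -0.22 to 0.17 (light chains) and -0.25 to -0.14 (all) at 120 days, and -0.39 to -0.19 (kinesin-1), -0.19 to 0.024 (dynein-1), -0.18 to 0.043 (light chains), -0.11 to 0.087 (dynactin) and -0.15 to -0.093 (all) at 90 days. Signs turned for Kif1a at 120 days (0.25 with deposited values, 1.1e-05 with array weights, -0.29 to 0.065 without 1 array), Dynll1 at 120 days (-0.15 under median centring), Kif3a at 90 days (0.039 with the mean of probe sets), and, without 1 array at 90 days, Kif1b (-0.67 to 0.17), Klc3 (-0.059 to 1.00) and Dynll1 1448682_at (-0.10 to 0.056). The causes were not tested. Signals near the offset and 3 arrays per group limit what can be resolved.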
